A study of Mus musculus with 6 samples.

Results

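The platelet-derived growth factor (PDGF) and fibroblast growth factor (FGF) genes described here were 9 of the 37224 genes in the expression table. They were taken by gene symbol, from a list chosen with earlier results of these data known. Counts over the 9 genes are therefore description and no support for a difference. The 9 comprised the PDGF ligand genes Pdgfa, Pdgfb and Pdgfc, the PDGF receptor genes Pdgfra and Pdgfrb, the FGF ligand genes Fgf2 and Fgf7, and the FGF receptor genes Fgfr1 and Fgfr2. Each symbol matched 1 Ensembl gene ID. The series holds RNA-seq of fibroblasts grown from mouse embryos (MEF) on a C57BL/6 background, in 4 groups of 1 library each. Wild-type cells and Dot1L-/- cells, labelled as null for the methyltransferase of lysine 79 of histone H3, were either untreated or exposed to a low dose of the inorganic arsenic salt sodium arsenite for 24 h. The protocol lists 5 and 10 µM beside 0 µM, and the labels do not say which concentration was sequenced. All 4 cultures grew in serum-containing medium. The labels speak of separate wild-type and mutant cell lines and do not give the number of embryos, so genotype and line cannot be told apart.

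PDGF ligands are secreted dimers that activate receptor tyrosine kinases on mesenchymal cells and drive the growth and migration of fibroblasts, smooth muscle cells and pericytes. PDGF-A acts through the alpha receptor encoded by Pdgfra, PDGF-B acts through the alpha and beta receptors, and PDGF-C is secreted in a latent form that a protease must cleave. FGF ligands bind heparan sulfate together with their receptors. FGF2 (basic FGF) is a broad mitogen that fibroblasts both make and answer to, whereas FGF7 (keratinocyte growth factor) is made by mesenchymal cells and acts mainly on epithelial cells through a splice form of Fgfr2. The table gives 1 total per gene, so splice forms of Fgfr1 and Fgfr2 cannot be seen in it.

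Levels were deposited as RPKM, a read count corrected for the length of the gene and the depth of the library. With arsenite, comparisons between genes of unlike length still carry a trend on gene length, described below. Depth, recovered from the steps of the RPKM values, was 62972880 and 64699847 reads in the wild-type and null controls but 10833103 and 11879632 with arsenite. The controls were therefore 5.81 and 5.45 times deeper. Without replicates, each difference is between libraries and has no p-value. Intervals are 95% counting intervals of the recovered reads, which leave out variation between cultures. Dot1l itself stood at 30.4 RPKM in untreated wild-type and 9.59 in untreated null cells, and at 5.71 and 1.24 in the treated libraries. Of 11 fibroblast markers 8 reached 1 RPKM, Pdgfra and Pdgfrb themselves among them, with Vim between 702 and 1310 and Col1a1 between 63.9 and 335. However, Thy1 was listed at 0 in all 4 libraries, and Lum and Fap stayed under 0.05. Markers of endothelial cells (2 of 8), leukocytes (3 of 9), epithelium (1 of 7), nerve and glia (3 of 7), and smooth muscle and pericytes (3 of 9) reached 1 RPKM in at least 1 library. Some were well above it. In untreated wild-type cells the smooth muscle marker Acta2 stood at 721 RPKM and Cd14 of the leukocyte list at 21.1. The neural markers Tubb3, Nes and Sox2 stood there at 61.9, 43.8 and 15.8.

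**Figure D1:**
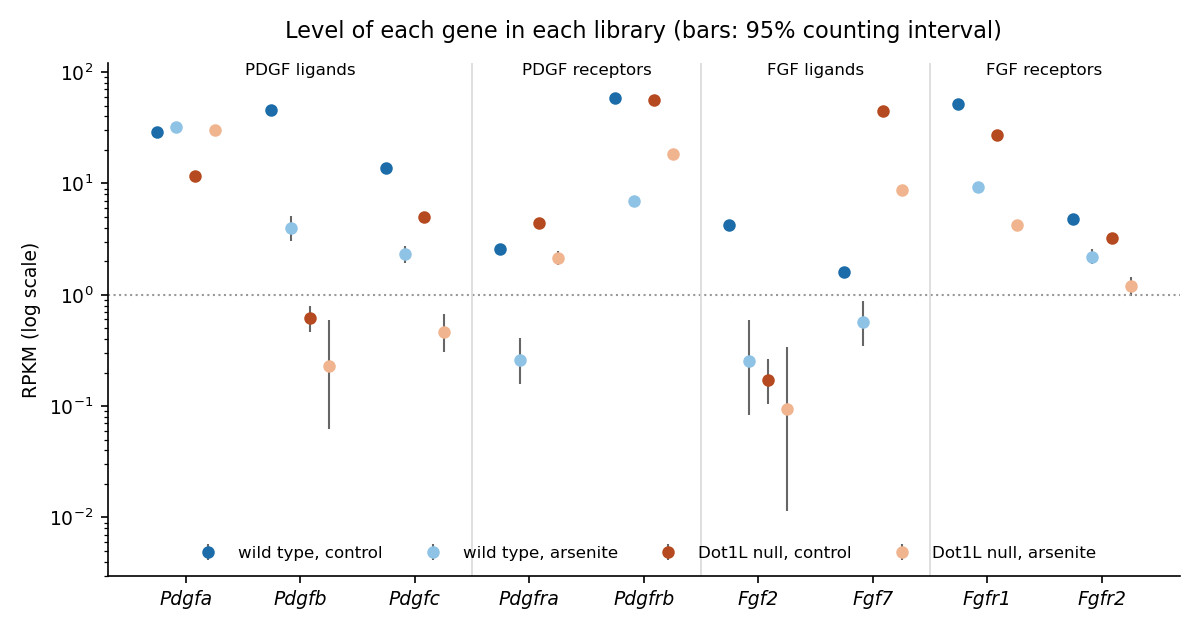
RPKM (log scale) of the 9 genes in the 4 libraries, with 95% counting intervals; the dotted line marks 1 RPKM. Pdgfb and Fgf2 are highest in the wild-type control, Fgf7 in the null control, and Pdgfa lies between 11.6 and 31.8 in all 4 libraries.

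Pdgfb and Fgf2 were far lower in null than in wild-type controls, Fgf7 was far higher, and with arsenite Pdgfa was the only one of the 9 genes whose RPKM was not below its control in either genotype. The promoters of Fgf2 and Fgf7 are shown because these genes lay on opposite sides of the genotype comparison, and 1 promoter of Pdgfa because of its difference from the other genes with arsenite. The sequences are from RefSeq on GRCm38.p6 (mm10), 250 bases up to the base before a transcription start annotated there, read 5′ to 3′ on the strand of the gene, with motif matches in capitals. Fgf2 covers chr3:37348403-37348652 (plus strand), Fgf7 chr2:126034408-126034657 (plus strand) and Pdgfa chr5:138994945-138995194 (minus strand).
Fgf2: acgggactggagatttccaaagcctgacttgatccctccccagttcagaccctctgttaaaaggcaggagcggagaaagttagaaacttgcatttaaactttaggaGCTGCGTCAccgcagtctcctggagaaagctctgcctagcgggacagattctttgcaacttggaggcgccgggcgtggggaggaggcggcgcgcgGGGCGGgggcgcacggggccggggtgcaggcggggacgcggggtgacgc
Fgf7: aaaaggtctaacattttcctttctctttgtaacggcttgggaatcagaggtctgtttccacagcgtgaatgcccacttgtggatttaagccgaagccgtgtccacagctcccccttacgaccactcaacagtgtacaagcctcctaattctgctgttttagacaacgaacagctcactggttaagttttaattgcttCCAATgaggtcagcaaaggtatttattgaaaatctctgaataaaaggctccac
Pdgfa: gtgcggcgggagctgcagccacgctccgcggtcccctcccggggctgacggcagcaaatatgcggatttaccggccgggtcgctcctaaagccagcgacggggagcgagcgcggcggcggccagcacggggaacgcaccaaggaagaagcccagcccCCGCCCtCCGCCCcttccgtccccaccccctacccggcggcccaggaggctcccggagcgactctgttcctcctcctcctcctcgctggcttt

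Motifs searched on both strands were the GC box (GGGCGG), the CCAAT box (CCAAT), the TATA box (TATAAA), the AP-1 site (TGACTCA), the cAMP response element (TGACGTCA) and the core of the antioxidant response element (TGACNNNGC). Fgf2 had 1 GC box and, on the reverse strand, 1 antioxidant core. Fgf7 had 1 CCAAT box, and the printed Pdgfa window had 2 GC boxes on the reverse strand. The other Pdgfa window held 1 GC box and 1 antioxidant core, Pdgfc 1 antioxidant core, and Pdgfra and Fgfr2 none of the motifs. Among 32851 windows of the same length, 32.7% held a GC box, 33.8% a CCAAT box, 12.4% a TATA box, 4.46% an AP-1 site, 1.55% a cAMP element and 10.2% an antioxidant core. The G and C share was 62.4% for Fgf2, 72.4% for Pdgfa and 43.6% for Fgf7, against a median of 52.4% over all windows (middle 50%, 45.2 to 61.2). Of the 9 genes, 6 had a window in the table, with a further window for Pdgfa. The other windows, of Pdgfa, Pdgfc, Pdgfra and Fgfr2, had G and C shares of 66.4%, 50.8%, 54.4% and 44.0%. A match describes letters in the window and does not show a site in use.

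Pdgfb (ENSMUSG00000000489, chromosome 15, 79995865 to 80024614 in GRCm38) had an RPKM of 45.7 in untreated and 3.99 in treated wild-type cells, and of 0.614 and 0.231 in the corresponding null libraries. In bulk RNA, fewer cells that express a gene and less RNA per cell cannot be told apart. The untreated wild-type library alone had a high level, and the null libraries held just 58 and 4 reads. The null control was 74.4-fold lower than the wild-type control (95% counting interval 57.5 to 98.2), a log2 difference of −4.86 on the log2(RPKM + 1) scale used below. Of all genes tested, 0.0477% had a lower value in that comparison. With arsenite, wild-type cells were 11.5-fold lower than their control (8.95 to 15.0). The null pair differed 2.66-fold on 58 and 4 reads, with an interval from 0.986 to 10.1 that includes no difference, and the direction turned with median centring (log2 −0.39 against 0.14).

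Pdgfa (ENSMUSG00000025856, chromosome 5, 138976014 to 139000792) had an RPKM of 29.1 in untreated and 31.8 in treated wild-type cells, and of 11.6 and 30.1 in the corresponding null libraries. The null control stood apart as the low library, and the other three lay close together. In wild-type cells arsenite and control differed 1.09-fold (1.02 to 1.17), whereas the null was 2.59-fold higher with arsenite (2.41 to 2.79). Between genotypes the control was 2.50-fold lower in the null (2.38 to 2.62), and the arsenite libraries could not be separated by counting error (ratio 0.948, 0.871 to 1.03), with a direction that turned under median centring (log2 −0.07 against 0.21).

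Pdgfc (ENSMUSG00000028019, chromosome 3, 81036416 to 81214040) was at 13.7 and 2.32 RPKM in wild-type control and arsenite, and at 4.98 and 0.463 in the null. It was lower with arsenite in each genotype and lower in the null under each treatment. The arsenite differences were 5.92-fold (4.96 to 7.11) in wild type and 10.8-fold (7.42 to 16.2) in the null. Added together, the 3 PDGF ligand genes amounted to 88.5 RPKM in untreated and 38.1 in treated wild-type cells, and to 17.2 and 30.8 in the null. Pdgfb made up the largest part of the first sum and Pdgfa of the other three.

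Pdgfrb (ENSMUSG00000024620, chromosome 18, 61045127 to 61085067), which encodes the beta receptor, had an RPKM of 58.0 in untreated wild-type and 56.6 in untreated null cells. The treated libraries stood at 6.96 and 18.5. The controls were nearly level, at a ratio of 0.977 (0.958 to 0.996) whose direction turned with median centring (log2 −0.03 against 0.14), and both arsenite libraries were lower. Arsenite was 8.33-fold lower than control in wild type (7.55 to 9.20) and 3.06-fold lower in the null (2.89 to 3.25), and under arsenite the null was 2.66-fold higher (2.38 to 2.98). Pdgfrb also marks pericytes. Of the pericyte and smooth muscle markers, Rgs5, Kcnj8 and Abcc9 stayed under 0.2 RPKM in all 4 libraries, and Cspg4 was highest in untreated null cells, at 0.578. Notch3 stood at 3.25 and 0.149 RPKM in untreated and treated wild-type cells and at 13.3 and 1.94 in the null, so that, like Pdgfrb, it was lower with arsenite in each genotype and higher in the null under arsenite. Tagln stood at 2.80 and 9.72 in wild type and at 20.0 and 248 in the null. The summed level of that list, most of it Acta2, was 728 and 967 RPKM in untreated and treated wild-type cells and 115 and 1579 in the null, and the part of these genes in the receptor values was not tested.

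Pdgfra (ENSMUSG00000029231, chromosome 5, 75151322 to 75198206), the alpha receptor gene, often used as a marker of mesenchymal cells, was much lower than Pdgfrb in each library. It stood at 2.59 RPKM in untreated and 0.260 in treated wild-type cells, and at 4.39 and 2.15 in the null. The wild-type arsenite library was the low one, with 19 reads, and the null libraries lay above the wild-type library of the same treatment. With arsenite the level was 9.93-fold lower in wild type (6.33 to 16.6) and 2.04-fold lower in the null (1.75 to 2.40), where the direction turned once the length trend described below was removed (log2 −0.78 against 0.47). Between genotypes, the null was 1.70-fold higher in controls (1.58 to 1.83) and 8.26-fold higher under arsenite (5.13 to 14.0).

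Fgf2 (ENSMUSG00000037225, chromosome 3, 37348477 to 37410106) had an RPKM of 4.27 in untreated wild-type cells, on 484 reads. The other libraries held 5 reads with arsenite (0.256 RPKM), 20 in untreated null cells (0.172) and 2 in treated null cells (0.0934). It reached 1 RPKM in the wild-type control alone, so the filter on low values itself required it to be lower elsewhere. The null control was 24.9-fold lower than wild type (15.9 to 41.1), and arsenite was 16.7-fold lower than control in wild type (7.09 to 51.5). In the null the arsenite difference was 1.84-fold, with an interval from 0.446 to 16.2, and no difference could be detected at this depth, with a direction that turned under median centring (log2 −0.10 against 0.43). Between genotypes under arsenite the reads were 5 and 2, and that direction turned as well (log2 −0.20 against 0.08).

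Fgf7 (ENSMUSG00000027208, chromosome 2, 126034658 to 126091185) showed the opposite genotype pattern. It stood at 1.59 RPKM in untreated and 0.568 in treated wild-type cells, against 45.1 and 8.73 in the null. Both null libraries lay above both wild-type libraries. The null was 28.3-fold higher in controls (25.3 to 31.7) and 15.4-fold higher under arsenite (9.79 to 25.5), and the log2 difference of 4.15 in controls was larger than that of 99.8% of all genes tested. Arsenite was lower than control in each genotype, 2.80-fold in wild type (1.79 to 4.65) and 5.16-fold in the null (4.63 to 5.77). Markers of epithelium, on which FGF7 mainly acts, summed to 3.26 and 1.24 RPKM in untreated and treated wild-type cells and to 0.346 and 0.319 in the null.

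**Figure D2:**
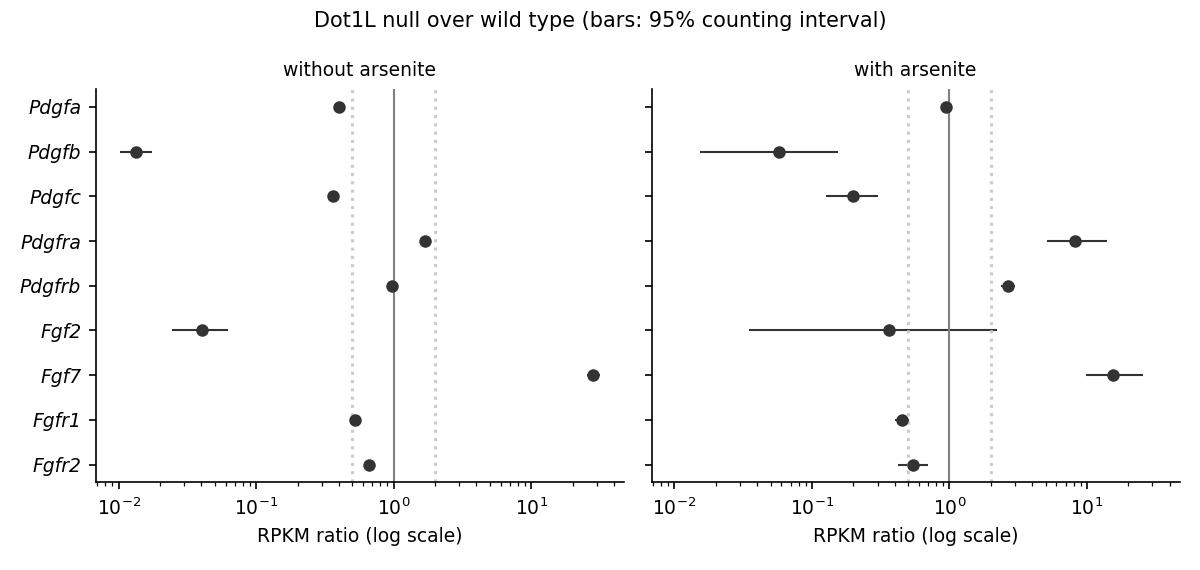
Ratio of RPKM in Dot1L null over wild type (log scale) for the 9 genes, without arsenite on the left and with arsenite on the right; bars are 95% counting intervals and dotted lines mark 2-fold. Pdgfb and Fgf7 lie far from 1 on opposite sides in both panels, and Pdgfra and Pdgfrb are past 2-fold with arsenite, at 8.26 and 2.66.

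Fgfr1 (ENSMUSG00000031565, chromosome 8, 25518759 to 25575718), the FGF receptor gene with the higher level in every library, had an RPKM of 51.4 in untreated and 9.36 in treated wild-type cells, and of 27.1 and 4.22 in the null. With arsenite it was 5.49-fold lower in wild type (5.12 to 5.89) and 6.42-fold lower in the null (5.81 to 7.10). In the null it was 1.90-fold lower without arsenite (1.86 to 1.94) and 2.22-fold lower with it (1.97 to 2.50). Fgfr2 (ENSMUSG00000030849, chromosome 7, 130162451 to 130266808) was lower throughout, at 4.84 and 2.21 RPKM in wild type and 3.21 and 1.20 in the null. Its arsenite differences were 2.19-fold (1.88 to 2.57) and 2.68-fold (2.19 to 3.31) lower, but the direction turned once the trend on gene length described below was removed (log2 −0.86 against 0.42 in wild type and −0.94 against 0.35 in the null).

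For comparison with the rest of the table, differences were taken as log2((RPKM + 1)/(RPKM + 1)) over the 12588 genes with at least 1 RPKM in any library, and called at 2-fold on that scale, which understates differences of low genes. All 9 genes passed this filter, in 4 libraries for Pdgfa, Pdgfrb, Fgfr1 and Fgfr2 and in fewer for the other genes. The first question was how the genotypes differed without arsenite. Pdgfa, Pdgfb, Pdgfc and Fgf2 were past 2-fold lower in the null and Fgf7 was past 2-fold higher. That is 4 of 9 lower against 14.7% of all genes, and 1 of 9 higher against 6.45% (in either direction, 5 of 9 against 21.2%). Of the 4 lower genes, Fgf2 passed the filter only in the wild-type control and Pdgfb only in the wild-type libraries, so the filter itself required a lower level in the null for these and their count is no support for a difference. The receptor genes were within 2-fold, with log2 differences of 0.59 for Pdgfra, −0.03 for Pdgfrb, −0.90 for Fgfr1 and −0.47 for Fgfr2. The median of the 9 was −0.90, and that of all genes −0.17.

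Under arsenite, Pdgfb, Pdgfc and Fgf7 were again past 2-fold in the same direction, and Pdgfra and Pdgfrb were past it as well. Pdgfra, Pdgfrb and Fgf7 were past 2-fold higher in the null (log2 1.32, 1.29 and 2.63), which is 3 of 9 against 8.75% of all genes. Pdgfb and Pdgfc were past 2-fold lower (−2.02 and −1.18), which is 2 of 9 against 16.9% (in either direction, 5 of 9 against 25.7%). Pdgfb reached 1 RPKM only in the wild-type libraries, so the filter itself required a lower level in the null, and its place in this count is no support. The lower count was 1 of 9 after median centring and with the length trend described below removed, where Pdgfc stood at −0.90 and −0.86. Pdgfa, at −0.07, was level between the genotypes. The median of the 9 was −0.20 and that of all genes −0.28.

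Arsenite against control in wild-type cells gave 6 of 9 genes past 2-fold lower, against 35.7% of all genes, and none higher, against 12.8% (in either direction, 6 of 9 against 48.5%). These were Pdgfb (log2 −3.23), Pdgfrb (−2.89), Fgfr1 (−2.34), Pdgfc (−2.15), Fgf2 (−2.07) and Pdgfra (−1.51). Fgfr2 (−0.86), Fgf7 (−0.73) and Pdgfa (0.13) were within 2-fold. The median of the 9 was −2.07, which is the value of Fgf2, against −0.56 for all genes. Fgf2 passed the filter only in the wild-type control, so the filter itself required it to be lower with arsenite. Its place in the count of 6 is no support for a difference. In the null, 4 of 9 were past 2-fold lower, against 37.1% of all genes, which is near that share. They were Fgfr1 (−2.43), Fgf7 (−2.24), Pdgfc (−2.03) and Pdgfrb (−1.56). Pdgfa was past 2-fold higher (1.30), 1 of 9 against 15.2% (in either direction, 5 of 9 against 52.2%). The median was −0.94, against −0.53 for all genes. Treatment cannot be told apart here from other differences between the libraries, depth among them.

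**Figure D3:**
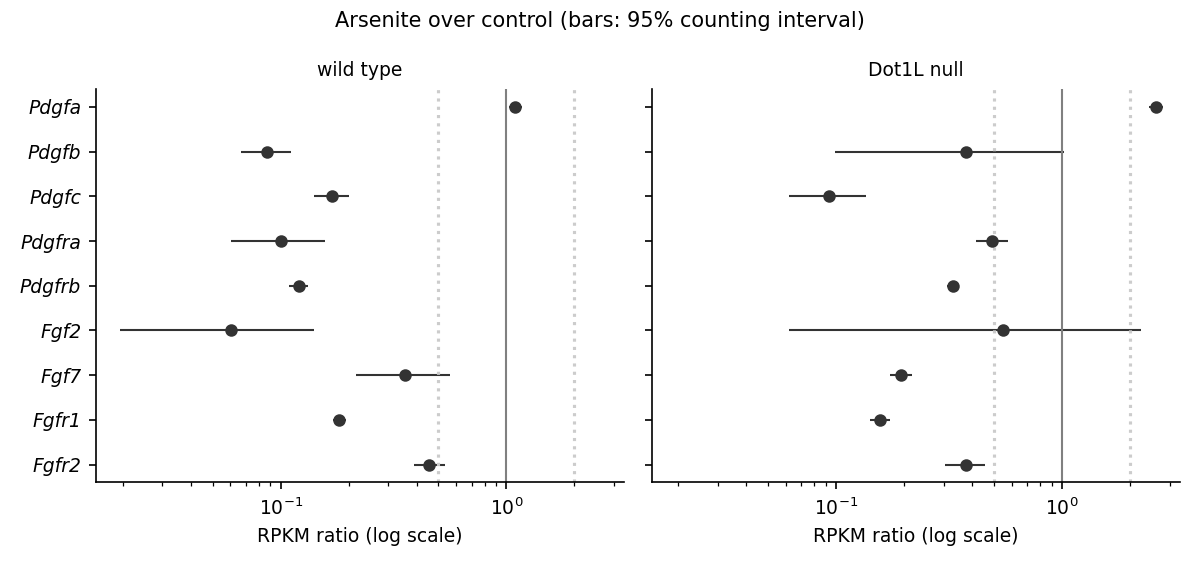
Ratio of RPKM with arsenite over control (log scale) for the 9 genes in wild-type cells on the left and Dot1L null cells on the right; bars are 95% counting intervals and dotted lines mark 2-fold. Pdgfa is the only gene above 1, at 1.09 and 2.59.

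Subtracting the wild-type arsenite difference from that of the null, on the log2 scale, gave a value that was at least 1 for Pdgfb (2.84), Fgf2 (1.97), Pdgfrb (1.33) and Pdgfa (1.18), which is 4 of 9 against 12.1% of all genes. It was below −1 for Fgf7 (−1.52), 1 of 9 against 12.8% (in either direction, 5 of 9 against 24.9%). For Pdgfb and Fgf2 the null control was already at 58 and 20 reads and left little range for a lower value. Both passed the filter through wild-type libraries alone, so their place in the count of 4 is no support for a difference. Pdgfra had 0.73, Pdgfc 0.12, Fgfr1 −0.09 and Fgfr2 −0.07. The wild-type control enters both the wild-type arsenite comparison and the untreated genotype comparison, and the null control enters the null arsenite comparison as well, so these values are not separate evidence from one another. None of them was tested against replicate error.

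Arsenite differences followed gene length across the table, with slopes of −0.63 in wild type and −0.66 in the null per doubling of length over 12155 genes of at least 200 bases. The receptor genes are long, with recovered lengths of 5478 bases for Pdgfrb, 6737 for Pdgfra, 7240 for Fgfr2 and 8120 for Fgfr1. With the trend removed, Pdgfb (−3.64), Fgf2 (−2.20), Pdgfrb (−1.80) and Pdgfc (−1.13) remained past 2-fold lower in wild type. Fgfr1 then stood at −0.99 and Pdgfra at −0.27. In the null, Fgf7 (−1.64), Fgfr1 (−1.09) and Pdgfc (−1.03) remained past 2-fold lower and Pdgfa past 2-fold higher (1.86), while Pdgfrb stood at −0.49 and Pdgfra at 0.47. A length recovered in this way may be a whole fraction of the true one, as may hold for Pdgfb (1459) and Fgf2 (1802), and reads would then be larger by the same factor. The values of these genes without the trend rest on those lengths. The trend was lower for longer genes, so in wild type they would then be less negative.

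**Figure D4:**
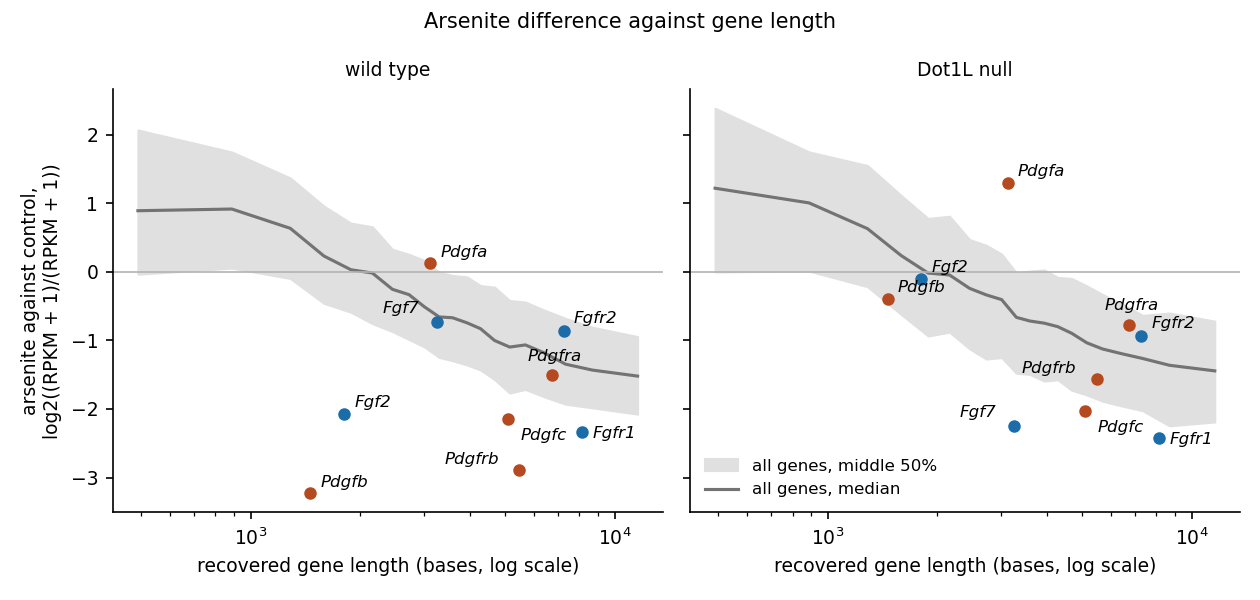
Log2 difference of arsenite against control plotted on recovered gene length (log scale) for the 9 genes, with PDGF genes in orange and FGF genes in blue, over the median (line) and middle 50% (band) of all genes in bins of length. Pdgfb and Fgf2 in wild type lie below the band at their short recovered lengths, and Pdgfa in the null lies above it.

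Ratios between genes of the same library do not depend on scaling between libraries. With arsenite they do carry the length trend described above, which was not removed from them. In wild type that trend (log2) was 0.41 for Pdgfb, −0.52 for Pdgfa, −1.02 for Pdgfc, −1.09 for Pdgfrb and −1.35 for Fgfr1. Pdgfrb exceeded Pdgfra 22.4-fold (21.1 to 23.8) in the wild-type control and 26.7-fold (16.9 to 44.9) with arsenite, against 12.9-fold (12.3 to 13.5) and 8.61-fold (7.33 to 10.2) in the null. Pdgfa was below Pdgfb in the wild-type control (ratio 0.635, 0.610 to 0.661) and above it elsewhere, by 7.97-fold (6.18 to 10.5) with arsenite, 18.9-fold (14.6 to 24.997) in untreated null cells and 131-fold (50.9 to 480.3) in treated null cells. Pdgfa over Pdgfc was close in the controls, at 2.11 and 2.33, and higher with arsenite, at 13.7 in wild type and 65.1 in the null.

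Fgf7 over Fgf2 was 0.374 (0.324 to 0.431) in untreated wild-type cells and 263 (170.1 to 430.4) in untreated null cells. With arsenite it was 2.22 (0.808 to 7.57) in wild type, where counting error does not separate the genes, and 93.5 (25.7 to 775) in the null. Fgfr1 over Fgfr2 was 10.6 and 8.43 in the controls and 4.24 and 3.52 with arsenite, in wild type and null in that order. Fgfr1 over Pdgfrb was 0.886 and 0.478 in the controls and 1.34 and 0.228 with arsenite, so that the FGF receptor gene was below the PDGF receptor gene in 3 of the 4 libraries.

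**Figure D5:**
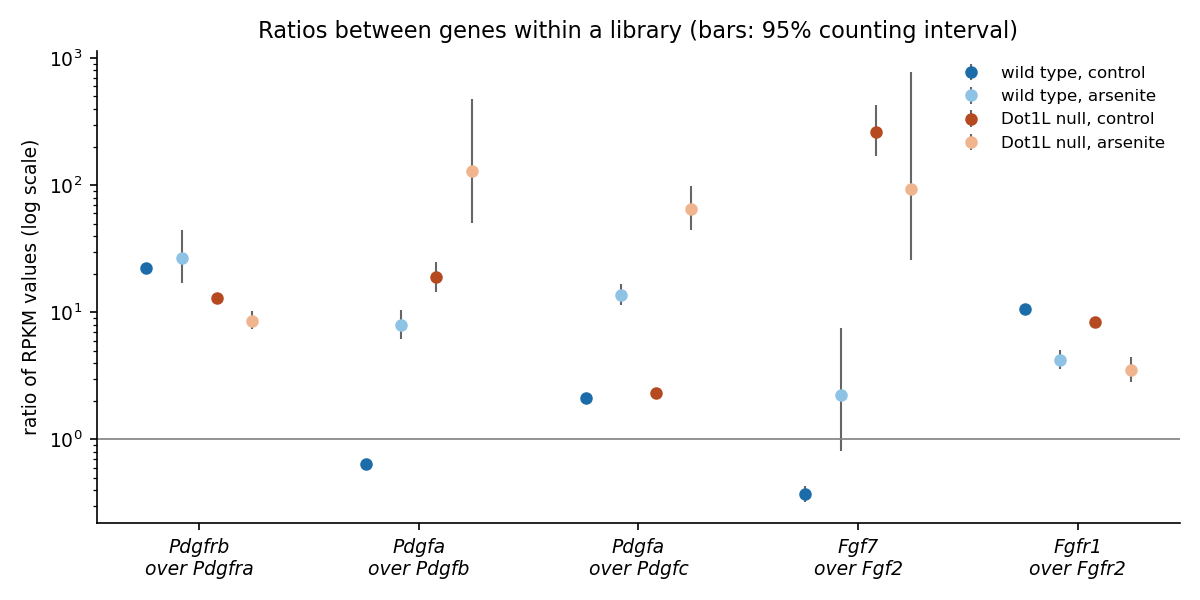
Ratios of RPKM between pairs of genes within each of the 4 libraries (log scale), with 95% counting intervals. Fgf7 over Fgf2 is 0.374 in untreated wild-type and 263 in untreated null cells, and Pdgfa over Pdgfb passes from 0.635 to values above 1 in the other libraries.

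In order of level, the wild-type control ran Pdgfrb, Fgfr1, Pdgfb, Pdgfa, Pdgfc, Fgfr2, Fgf2, Pdgfra and Fgf7. The null control ran Pdgfrb, Fgf7, Fgfr1, Pdgfa, Pdgfc, Pdgfra, Fgfr2, Pdgfb and Fgf2. Counting intervals separated all neighbours in these orders. With arsenite, Pdgfa came first in each genotype, ahead of Fgfr1 in wild type and of Pdgfrb in the null. The length trend was not removed from these orders, and it was lower at the lengths of Fgfr1 and Pdgfrb than at that of Pdgfa. The neighbours that could not be separated were Pdgfc and Fgfr2, and Pdgfra and Fgf2, in wild type with arsenite, and Pdgfc, Pdgfb and Fgf2 at the bottom of the null with arsenite.

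Most remaining genes of these families were near 0. Of 29 further PDGF and FGF ligands, receptors, coreceptors and binding proteins, 8 passed the filter. With arsenite in wild type, 2 of the 8 were past 2-fold lower and 1 higher, against 35.7% and 12.8% of all genes, which these counts did not exceed. Fgf13, an intracellular FGF homolog, went from 9.40 RPKM in the control to 1.77, and Fgfbp3, which encodes an FGF-binding protein, from 5.29 to 1.51. Fgfbp1, which encodes a carrier that releases FGF2 from the matrix, was at 0.303 and 4.88. It reached 1 RPKM only in treated wild-type cells, so the filter itself required it to be higher there. In the null, Fgfrl1, a receptor without a kinase domain, was the 1 gene of the 8 past 2-fold (11.4 and 3.07), against 52.2% of all genes in either direction. Between untreated genotypes 3 of the 8 were past 2-fold lower in the null (Fgf13, Fgf21 and Fgfbp3), against 14.7% of all genes. The 1 higher, against 6.45%, was Fgf10, a close relative of Fgf7, singled out here after its values were seen. It stood at 0.110 and 2.53 RPKM in the untreated wild-type and null libraries. These 3 passed the filter only in wild-type libraries and Fgf10 only in null libraries. The filter itself required these directions, so the counts are no support for a difference.

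Genes that carry the signal from these receptors into the cell were mostly lower with arsenite. Of 32 adaptors, RAS, RAF and ERK kinases and related proteins, 23 were past 2-fold lower in wild type, against 35.7% of all genes, and 1 higher, against 12.8% (median −1.58). In the null 18 were lower, against 37.1% of all genes, and none higher, against 15.2% (median −1.29). Crkl, an adaptor, was at 17.9 and 0.406 RPKM in wild type and at 25.4 and 0.327 in the null, and Ptpn11, the phosphatase SHP2, at 43.0 and 4.47 in the null. Hras was past 2-fold higher in wild type, at 15.0 and 34.0. With the length trend removed, 10 of 32 were lower in each genotype, against 15.4% of all genes in wild type and 21.0% in the null. Higher were 2 and 4, against 15.8% and 20.0% (medians −0.38 and −0.34). Between untreated genotypes 28 of 32 were within 2-fold, as were 9924 of all 12588 genes.

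Feedback and target genes of FGF and ERK signaling numbered 21, and all passed the filter. In wild type 11 of 21 were past 2-fold lower with arsenite and none higher (median −1.41), against 35.7% and 12.8% of all genes. Fos and Il17rd, among the 11, reached 1 RPKM only in the wild-type control. The filter itself required them to be lower with arsenite there, so their places in this count are no support for a difference. Spry1, an inhibitor induced by FGF, went from 6.58 to 0.127 RPKM, and Cbl, a ubiquitin ligase for activated receptors, from 10.3 to 0.654. In the null 7 were lower and 3 higher (median −0.28), against 37.1% and 15.2% of all genes, which is near those shares. Myc stood there at 149.7 and 6.66, and the ETS factor Etv4 at 4.55 and 15.6. The arsenite difference of the null exceeded that of wild type by at least 1 (log2) in 8 of 21, against 12.1% of all genes. Fos was among these 8 (1.16), and for the same reason its place there is no support. The difference of the null was smaller by at least 1 in 2 genes, against 12.8%. With the length trend taken out, 9 were lower and 1 higher in wild type (median −0.63), against 15.4% and 15.8% of all genes. The null then had 5 lower and 7 higher (median 0.17), against 21.0% and 20.0%, so that the balance in the null turned.

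Heparan sulfate carriers and enzymes, on which FGF binding depends, passed the filter in 19 of 22 cases. With arsenite 17 of the 19 were past 2-fold lower in wild type and none higher (median −1.67), against 35.7% and 12.8% of all genes. In the null 11 were lower and 2 higher (median −1.10), against 37.1% and 15.2%. Ndst1, a sulfotransferase of heparan sulfate synthesis, was at 28.8 and 2.74 RPKM in wild type and at 27.9 and 1.33 in the null. Syndecan 4, Sdc4, was at 55.8 and 163 in the null. Once gene length was accounted for, wild type had 5 lower and none higher, against 15.4% and 15.8% of all genes. The null then had 3 lower and 3 higher, against 21.0% and 20.0%, shares that these counts did not exceed. Of 6 PDGF-processing and coreceptor genes that passed, of 8 listed, 5 were lower in wild type and 4 in the null, against 35.7% and 37.1% of all genes. With the length trend removed 3 and 2 were lower, against 15.4% and 21.0%. Plat, which encodes the protease known to activate PDGF-C, stood at 50.1 and 4.92 in wild type and at 39.3 and 8.85 in the null. Nrp1, a coreceptor, was at 10.96 and 10.8 in wild type and at 17.8 and 57.9 in the null.

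The 21 of 39 other receptor tyrosine kinase genes that passed the filter allow the 4 receptor genes to be set beside others of their kind. In wild type 15 of 21 were past 2-fold lower with arsenite (median −1.26) and in the null 11 of 21 (median −1.03), against 35.7% and 37.1% of all genes. None were higher in either, against 12.8% and 15.2%. Egfr and Ror2, among the 15, passed the filter only in the wild-type control, and Ntrk3, among the 11, only in the null control. The filter itself required these to be lower with arsenite, so their places in the counts are no support for a difference. These are long genes, with a median recovered length of 5762 bases. With the length trend removed 4 were lower in each genotype, against 15.4% of all genes in wild type and 21.0% in the null, which is near those shares. None were higher in wild type and 3 in the null, against 15.8% and 20.0%. The medians were −0.40 and −0.01. Epha2 was at 68.2 and 5.75 RPKM in wild type, and Ddr2, a collagen receptor, at 30.5 and 4.70. Of the 4 PDGF and FGF receptor genes, 3 were past 2-fold lower in wild type and 2 in the null, against the same 35.7% and 37.1%. With the length trend removed it was 1 in each, against 15.4% and 21.0%, Pdgfrb in wild type and Fgfr1 in the null. Between untreated genotypes 18 of the 21 were within 2-fold, as were all 4 and 9924 of all 12588 genes.

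The genes whose pattern over the 4 libraries lay nearest to each member were found by the root mean square distance of mean-centred log2(RPKM + 1) values. With 4 points and 12588 genes such matches are easily found, and they are given as a description only. Pdgfb lay nearest to Pde8a (0.16) and Sulf1 (0.23), Fgf2 to Ccl2 (0.08) and Rdh10 (0.08), and Fgf7 to Col18a1 (0.27) and Ifi202b (0.32). Pdgfa was nearest to Ctf1 (0.05) and Dnpep (0.05), Pdgfc to Rusc2 (0.06) and Plk4 (0.07), Pdgfra to Mtmr10 (0.06) and Nfix (0.06), and Pdgfrb to Hgf (0.08) and Scap (0.09). Fgfr1 had Rhobtb3 (0.04) and Zfp367 (0.05), and Fgfr2 had Itsn1 (0.02) and Dclre1b (0.02). Fgf7 and Pdgfb, with the widest genotype differences, had the most distant nearest genes.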

How the data were processed

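RNA-seq of 4 groups with 1 library each was used, and 2 ChIP-seq libraries of H3K27ac are not analysed here. The labels' protocols describe removal of ribosomal RNA and strand-specific, paired-end sequencing, while the molecule is labelled polyA RNA. TopHat, HTSeq, Bowtie, deepTools and the build mm10 are named in the submitters' processing notes, without roles. The authors deposited RPKM values, whose annotation and strand setting were not given in the sources used here. Symbols were found for 35449 of 37224 IDs.

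Total reads were recovered as the most frequent inverse of RPKM times length over small RNA genes. Gene length was the shortest that gave whole reads in all libraries (relative tolerance 1e-12), found for 21617 genes. Of 505 small RNA genes, 392 had their annotated span or a whole fraction of it. Recovered reads served for intervals, length and thinning, not for a count model. Ratio intervals are exact conditional (Clopper-Pearson) and level intervals exact Poisson, at 95%. They cover counting error only and treat reads as independent molecules.

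With 1 library per group there is no test. The length trend was a lowess curve (span 0.3). Recovery was tested on simulated data. Alternatives were a pseudocount of 0.1, a filter of 5 RPKM or none, median centring, scaling to the 75th percentile, removal of the length trend, and thinning. Named genes were all 9 members, up to 3 per direction from each list, and the 2 nearest genes. Members and lists were chosen with earlier results of these data known. Python 3.11.15, numpy 2.4.6, scipy 1.17.1, pandas 2.3.3 and statsmodels 0.14.6 were used.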

Additional observations from a re-analysis of the deposited data

Results flagged for a closer look

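None of the 9 PDGF and FGF genes had opposite arsenite directions in the genotypes on the deposited scale. After median centring Pdgfb (log2 −2.67 in wild type and 0.14 in the null) and Fgf2 (−1.51 and 0.43) did, and with the length trend removed Pdgfra did (−0.27 and 0.47). Among the other genes that were selected for naming, 5 were lower with arsenite in wild type and higher in the null, with counting intervals away from no difference in each. These differences between genotypes were not tested against replicate error. Egr1 stood at 21.5 and 2.70 RPKM in wild-type control and arsenite and at 12.8 and 21.3 in the null, a difference of the log2 effects of 3.30. Ccnd1, the gene of cyclin D1, was at 153 and 109 in wild type and at 78.4 and 264 in the null (2.22). Sdc2, a syndecan, was at 58.2 and 41.0 and at 26.9 and 57.3 (1.56). The growth factor genes Tgfb3 and Igf1 had differences of 1.76 and 1.89, with Tgfb3 at 11.4 and 6.98 and at 3.53 and 8.88, and Igf1 at 0.750 and 0.354 and at 0.351 and 2.86. Igf1 reached 1 RPKM only in treated null cells, so the filter itself required it to be higher there. Its place among the 5 is no support for a difference. After median centring the wild-type differences of Ccnd1 (0.08), Sdc2 (0.06) and Igf1 (0.19) were no longer below 0, so the directions were then opposite only for Egr1 (−2.05 and 1.23) and Tgfb3 (−0.07 and 1.66).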

How the results depend on the processing

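The counts of PDGF and FGF genes past 2-fold in either direction stayed within 1.5 times their reported values in all 5 comparisons and under all 7 alternatives. By direction the exception was the count lower in the null under arsenite, 2 as reported and 1 after median centring or without the length trend. Of the 26 single values past 2-fold, all 26 kept their sign wherever a value could be computed. Past 2-fold remained 26 with a pseudocount of 0.1 (6 further values then passed), 26 with no filter, 26 after thinning (2 further), 25 after scaling to the 75th percentile, 24 after median centring and 22 without the length trend. A filter of 5 RPKM removed Pdgfra, Fgf2 and Fgfr2 and kept 21 of 21. Over all genes, the share of called genes that were higher with arsenite was 26.4% in wild type and 29.0% in the null, and 52.8% and 49.6% after median centring, 43.9% and 46.9% after scaling to the 75th percentile and 50.7% and 48.8% without the length trend. The share higher in the null was 30.5% untreated and 34.1% under arsenite, and 43.9% and 57.1%, 39.2% and 49.1%, and 45.9% and 58.2% under the same settings. No paired analysis was possible because each group held 1 library. Depth limited Fgf2 and Pdgfb in the null with arsenite, at 2 and 4 reads.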

Other observations

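Of 25 other growth factor genes that passed the filter, 13 were past 2-fold lower with arsenite in wild type, against 35.7% of all genes. None were higher, against 12.8% (median −1.34, against −0.56 for all genes). In the null 10 were lower, near the 37.1% of all genes, and 2 higher, against 15.2% (median −0.62, against −0.53). Angpt1 passed the filter only in the wild-type control, Tgfa only in the null control and Igf1 only in treated null cells. The filter itself required Angpt1 and Tgfa to be lower with arsenite there and Igf1 to be higher, so their places in these counts are no support for a difference. Vegfa, the main angiogenic factor, stood at 114 and 14.8 RPKM in wild-type control and arsenite and at 88.2 and 8.10 in the null. Vegfc was at 23.9 and 2.99 in wild type. Hgf, the ligand of Met, was at 5.45 in the wild-type control and listed at 0 with arsenite. Kitl was at 8.29 and 0.482 in the null, and Inhba, a subunit of activin, at 20.1 and 2.00. With the trend on gene length taken out, 12 were lower and 1 higher in wild type, against 15.4% and 15.8% of all genes. In the null 9 were then lower and 4 higher, against 21.0% and 20.0%.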
